A study of Mus musculus with 9 samples.

Results

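The p53 target genes are a set of 33 listed mouse symbols: Trp53 itself, genes that p53 switches on, and close regulators of the p53 protein. They were looked up by symbol in the platform annotation, and the brightest probe set with a single symbol stood for each gene. Of the 33 symbols, 29 had such a probe set, among 19937 genes of the array, and 28 of the 29 were bright enough to be tested among 11962 genes. Trp53, Bax, Gdf15 and the isoform name Tap63 found no such probe set and were not analysed here. Pmaip1 had a probe set but lay below the filter on dim genes.

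The cells were mouse embryonic fibroblasts (MEFs), which are taken from embryos and grown in culture, and their RNA was read on 9 Affymetrix arrays. The groups were wild type (WT), p27CK (CK) and p27KO (KO), with 3 arrays each, where p27 is the cell cycle inhibitor encoded by Cdkn1b. All cells had been grown with 10% serum and were then starved of serum for 72 h, and the labels call every group quiescent. The starvation is common to all groups, but cycling genes differed between genotypes, as given below. In published work p27CK is a p27 protein that no longer binds cyclins and their kinases; the labels give the name only, and the extraction notes of all samples speak of wt or delta51 mice without saying which cells these are. The labels do not give embryo, passage, culture or p53 status, so the p-values speak of the spread among these 9 arrays alone, part of which may be technical. Effects of the genotype and of the single cultures behind it cannot be told apart.

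The transcription factor p53 is held at a low level by the ubiquitin ligase Mdm2, which is itself a p53 target, so that a rise of p53 raises its own inhibitor. Stress signals free p53 from Mdm2, and p53 then binds a paired decamer element near its targets and turns on genes of growth arrest, DNA repair, cell death and metabolism. In fibroblasts the pathway is best known for arrest after DNA damage and for senescence in culture, where the Arf protein of the Cdkn2a locus restrains Mdm2.

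Array medians lay between 7.29 and 7.40 on the log2 scale, and arrays of 1 genotype correlated at 0.995 to 0.998 across probe sets against 0.964 to 0.975 between genotypes. Cdkn1b, the targeted gene, read 11.42, 11.50 and 11.47 in WT, 10.99, 11.14 and 11.16 in CK and 7.44, 7.25 and 7.45 in KO. Of 10 fibroblast markers all passed the filter, 8 fell and 1 rose in KO against WT, and 3 fell and 2 rose in CK. Over all tested genes 24.6% fell and 26.6% rose in KO, and 32.1% fell and 30.7% rose in CK. Thy1 read 11.73 (WT), 11.69 (CK) and 7.14 (KO). The cartilage markers Col2a1 and Sox9, above the filter level of 7.24 in every genotype, rose in KO (Col2a1 from 9.47 in WT to 12.67, Sox9 from 11.25 to 12.80). Acan, Matn1, Comp and Col9a1 lay near or below that level in WT and CK and passed the filter through the KO arrays, so no count is given for them. Of 6 macrophage, 5 endothelial and 6 epithelial markers, 1, 1 and 2 passed the filter, and Ptprc, Pecam1 and Epcam, which define those types, read below that level in every genotype. The macrophage and endothelial markers that passed, Cd68 (10.64 in WT, 8.59 in CK, 7.99 in KO) and Tek (8.77, 6.51 and 6.80), fell in both mutants. Cd14 and Cdh5, under the filter, were also highest in WT. From the neural and adipocyte lists, Map2 fell in both mutants (10.57 in WT, 9.35 in CK, 7.63 in KO), as did Pparg (10.91, 8.45 and 10.22). The lists did not move as a whole. The adipocyte marker Fabp4 rose in CK and fell in KO (7.93 in WT, 8.96 in CK, 7.45 in KO). No difference of Plin1 (adipocyte) or Elavl3 (neural) passed the test. Of 11 cycling genes 8 fell and 1 rose in KO, and 2 rose and 0 fell in CK against WT by limma. In RNA from whole cultures, fewer cells of a type and less RNA per cell cannot be told apart, and the part of these shifts in the results below was not tested.

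The p53 response element, a pair of decamers, was searched for in RefSeq promoter windows of assembly GRCm38.p6, each running from 250 bases before a gene's start to 50 after it. A match was 2 decamers, 0 to 13 bases apart, with at most 2 mismatches in all and the fixed C at base 4 and G at base 7 kept in each; the decamer reads alike on both strands. Of 21 members whose windows were read, 4 held a match, against 4.71% of 27025 genes in the same table. With at most 1 mismatch there were 2 members, Ccng1 and Pml, and 0.718% of genes. These 4 promoters are shown because they held a match. Their genes differed between genotypes in different directions. A call in at least 1 comparison was common, with 82.1% of tested members and 79.7% of all tested genes. Capitals mark the decamers, and each printed stretch ends before the start site. The stretches are chr11:40755442-40755501, minus strand (Ccng1), chr9:58249901-58249967, minus strand (Pml), chr10:41887233-41887295, plus strand (Sesn1, at 1 of its 2 listed start sites) and chr6:67037418-67037483, minus strand (Gadd45a).
Ccng1: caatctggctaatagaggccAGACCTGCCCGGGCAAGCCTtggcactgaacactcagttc
Pml: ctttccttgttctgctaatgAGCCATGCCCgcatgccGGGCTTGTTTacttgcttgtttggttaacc
Sesn1: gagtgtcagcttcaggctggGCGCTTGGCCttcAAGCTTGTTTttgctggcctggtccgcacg
Gadd45a: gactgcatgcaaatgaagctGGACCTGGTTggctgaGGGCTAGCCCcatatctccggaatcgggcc
The Ccng1 decamers abut, 195 to 176 bases before the start, and those of Pml, Sesn1 and Gadd45a lie 7, 3 and 6 bases apart. A match is a description of these letters and does not show binding, and elements that lie further away, such as the known ones in the first intron of Mdm2, were not searched.

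The p53 target genes did not move one way in either mutant. Against WT, 10 of the 28 tested members rose and 7 fell in KO, and 7 rose and 11 fell in CK (limma, Benjamini-Hochberg adjusted p under 0.05 over all 11962 tested genes). Over all tested genes 26.6% rose and 24.6% fell in KO, and 30.7% rose and 32.1% fell in CK, and the shares of the members lay around these. The member shares were 35.7% higher and 25% lower in KO, and 25% higher and 39.3% lower in CK. The median member differed from WT by 0.00 in KO and by -0.06 in CK on the log2 scale, beside 0.01 and -0.01 over all tested genes. With each array centred on its median, 12 members rose and 4 fell in KO, and the share of higher genes among all calls in KO went from 51.9% to 70.6%.

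Set directly against each other, CK was lower than KO in more members than it was higher. Here 14 members were lower in CK and 7 higher, beside 32.7% lower and 29.5% higher over all tested genes, and the median member difference was -0.15 against -0.02. The median size of a difference regardless of sign was 0.44 in the members and 0.28 over all tested genes. Differences of at least 1.5-fold that passed the test were found in 6 members in KO versus WT (21.4%, all genes 18%), 6 in CK versus WT (21.4%, all genes 25.3%) and 11 in CK versus KO (39.3%, all genes 25.7%). In all, 23 of the 28 tested members passed the test in at least 1 comparison (82.1%), beside 79.7% of all tested genes, and 11 did in all 3 (39.3%), beside 27.2%. Mdm2, Bbc3, Eda2r, Ddb2 and Polk passed it in none. The direction between the mutants also depended on scaling. With each array centred on its median, the CK minus KO median of all tested genes went from -0.02 to -0.09. The share of higher genes among all calls in CK versus KO went from 47.5% to 39.1%.

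**Figure D1:**
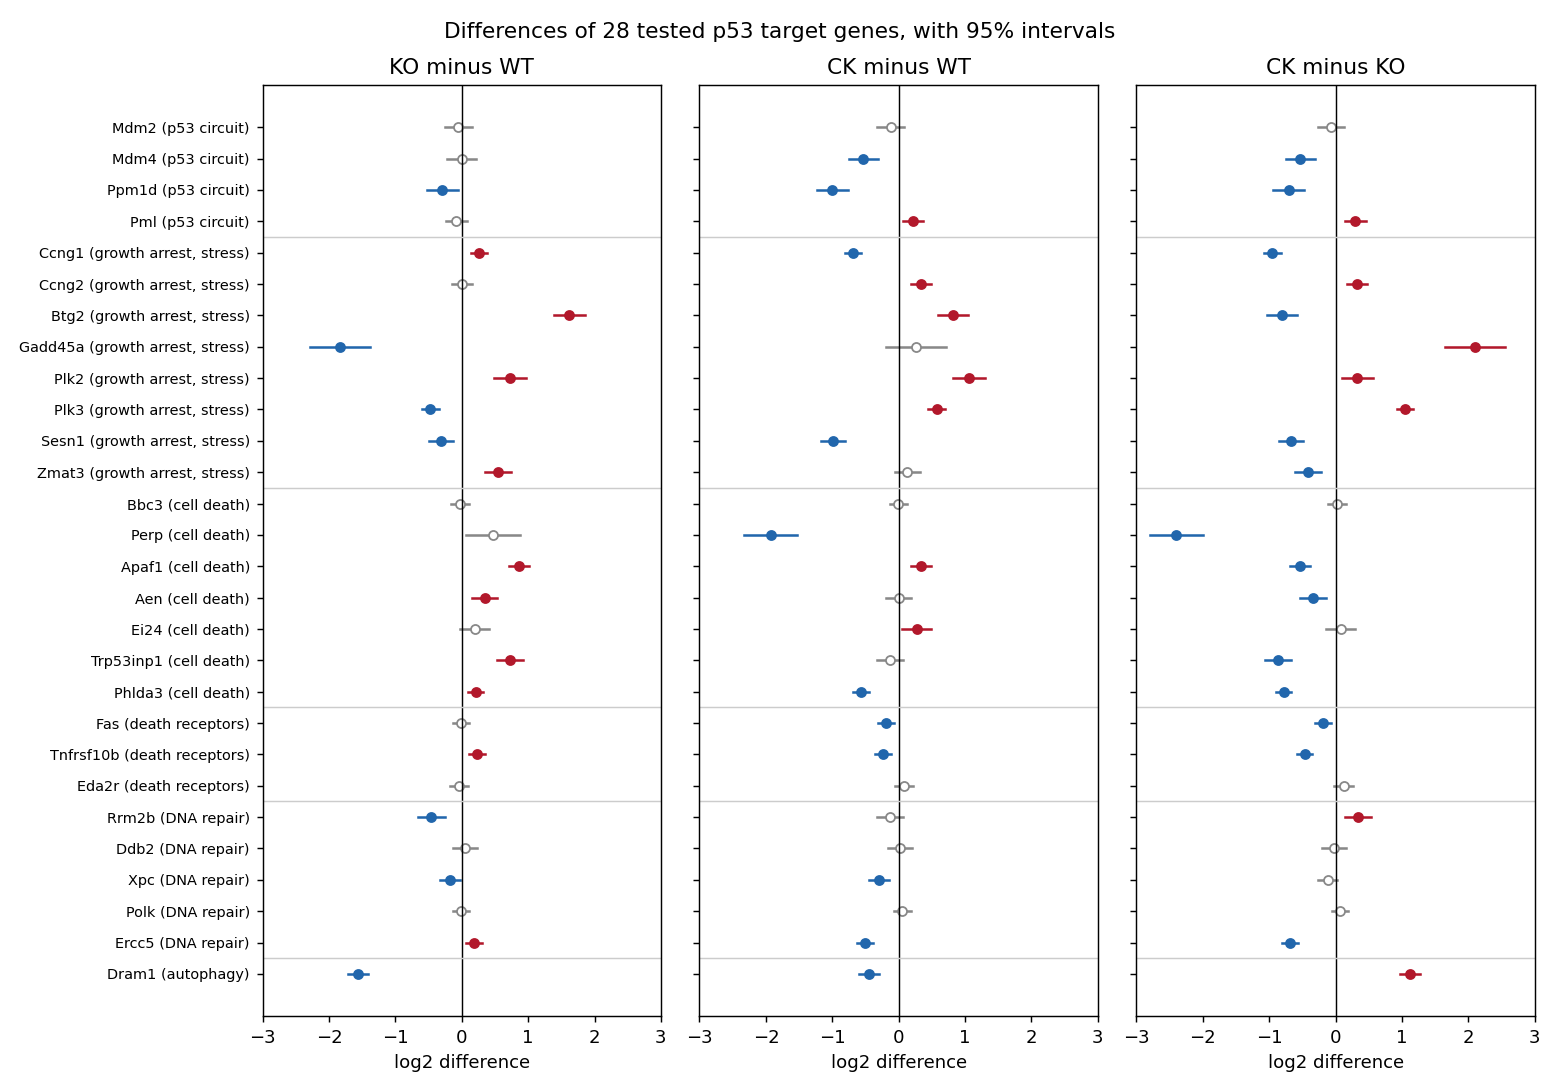
Log2 differences (x axes) of the 28 tested p53 target genes (rows, grouped by role) in KO minus WT, CK minus WT and CK minus KO, with 95% limma intervals not adjusted for multiple tests. Filled red points rose and filled blue points fell at an adjusted p under 0.05, and open grey points did not pass; Gadd45a and Dram1 lie far to the left in KO minus WT and Perp in CK minus WT.

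**Figure D2:**
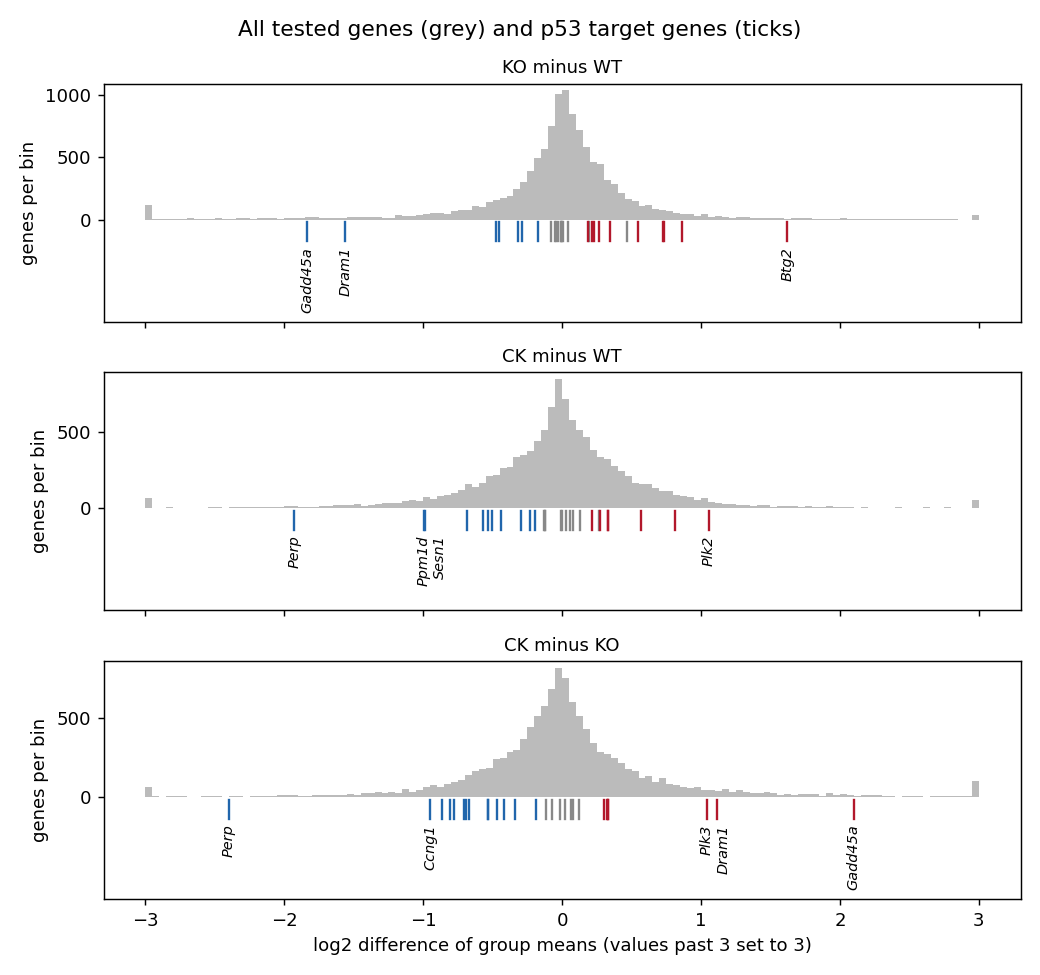
Log2 differences of group means for all 11962 tested genes (grey histograms, genes per bin on the y axis) and for the 28 p53 target genes (ticks, red higher, blue lower, grey not called). Members past 0.9 in size are named; the ticks lie on both sides of 0 in each comparison.

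Within the p53 circuit, Mdm4 and the phosphatase Ppm1d were lower in CK, and no difference of Mdm2 passed the test. Mdm2, the ubiquitin ligase that degrades p53, read 11.19, 11.16 and 11.28 in WT, 10.89, 11.13 and 11.24 in CK and 11.18, 11.05 and 11.24 in KO. The groups overlapped, and no difference passed the test (KO minus WT -0.05, 95% interval -0.25 to 0.15; CK minus WT -0.12, interval -0.32 to 0.08).

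Mdm4, which binds p53 and blocks its transactivation domain, read 9.71, 9.70 and 9.97 in WT, 9.22, 9.13 and 9.44 in CK and 9.72, 9.77 and 9.90 in KO. All CK arrays lay below all others, and Mdm4 fell in CK against WT by 0.53 (SE 0.10, limma adjusted p = 0.000708), while KO minus WT was -0.00. Ppm1d, the phosphatase Wip1 that switches off p53 and its upstream kinases, read 11.41, 11.25 and 11.26 in WT, 10.09, 10.42 and 10.42 in CK and 10.98, 10.90 and 11.17 in KO. The genotypes did not overlap. Ppm1d fell by 1.00 in CK (SE 0.10, adjusted p = 1.06e-05) and by 0.29 in KO (adjusted p = 0.0363). The KO call depended on single arrays: the adjusted p was 0.128, 0.0571 and 0.0552 with WT replicate 1, 2 or 3 left out, and 0.098 and 0.129 with KO replicate 1 or 2 left out.

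Pml, the scaffold of nuclear bodies where p53 is modified, read 10.73, 10.63 and 10.76 in WT, 11.00, 11.00 and 10.78 in CK and 10.61, 10.68 and 10.58 in KO. It rose in CK by 0.22 (limma adjusted p = 0.0188). With CK replicate 1 left out the adjusted p was 0.0678, with CK replicate 2 left out 0.0663, and with WT replicate 2 left out 0.0748. Its KO level did not pass the test against WT (difference -0.08, interval -0.24 to 0.08).

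The genes of growth arrest and stress split in direction, several of them by a wide margin. Of 8 members, 4 rose and 3 fell in KO, 4 rose and 2 fell in CK, and all 8 differed between CK and KO, with 4 higher and 4 lower in CK. The shares over all tested genes were 26.6% higher and 24.6% lower in KO, and 30.7% higher and 32.1% lower in CK. Between CK and KO they were 29.5% higher and 32.7% lower in CK. Cycling genes moved with genotype too, and all 9 that passed the test in CK versus KO were higher in CK (median of 11 tested, 0.70).

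Ccng1, which encodes cyclin G1 and recruits a phosphatase to Mdm2, read 12.75, 12.82 and 12.85 in WT, 12.06, 12.12 and 12.18 in CK and 13.12, 13.02 and 13.06 in KO. The genotypes formed 3 separate tiers with CK lowest and KO highest. Ccng1 fell by 0.69 in CK (SE 0.05, adjusted p = 1.62e-06) and rose by 0.27 in KO (SE 0.05, adjusted p = 0.0022), and CK was 1.93-fold below KO (limma). Its relative Ccng2, cyclin G2, which FoxO factors also induce, rose in CK by 0.33 (adjusted p = 0.00156) and was 9.38 in WT and 9.39 in KO.

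Btg2, an antiproliferative factor that promotes decay of mRNA, read 8.07, 8.24 and 7.96 in WT, 8.98, 8.86 and 8.86 in CK and 9.77, 9.87 and 9.49 in KO. Every mutant array lay above every WT array, and KO above CK. The rise was 1.62 in KO (SE 0.10, adjusted p = 3.15e-07), or 3.08-fold, and 0.81 in CK (SE 0.10, adjusted p = 4.83e-05), or 1.76-fold.

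Gadd45a, a stress sensor that binds PCNA and activates MAP kinase signalling, read 10.57, 10.61 and 10.29 in WT, 10.86, 10.47 and 10.94 in CK and 8.86, 8.97 and 8.14 in KO. The KO arrays were far below all the others, while WT and CK overlapped. Gadd45a fell by 1.83 in KO (SE 0.20, adjusted p = 2.67e-05), a 3.56-fold difference, and CK minus WT was 0.27 (interval -0.19 to 0.72, adjusted p = 0.28). KO had the widest spread of any member in that genotype here (SD 0.45), from the array at 8.14, and without KO replicate 3 it was still lower than WT, at -1.57 (Gadd45a log2 difference, KO versus WT).

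The polo-like kinases Plk2 and Plk3, which respond to stress and serum, moved in opposite directions in KO. Plk2 read 10.51, 10.44 and 10.03 in WT, 11.41, 11.36 and 11.38 in CK and 11.05, 11.11 and 11.00 in KO. It rose in both mutants, by 1.06 in CK (SE 0.11, adjusted p = 9.21e-06) and by 0.73 in KO (SE 0.11, adjusted p = 0.000209). The further step from KO to CK, 0.33 (adjusted p = 0.0206), was lost without CK replicate 1 (adjusted p = 0.0572), KO replicate 1 (0.0506) or KO replicate 3 (0.0577). Plk3 read 9.39, 9.28 and 9.36 in WT, 9.89, 9.96 and 9.89 in CK and 8.88, 8.93 and 8.80 in KO. It rose in CK by 0.57 (SE 0.06, adjusted p = 7.72e-06) and fell in KO by 0.47 (SE 0.06, adjusted p = 4.57e-05), so its tiers ran opposite to those of Ccng1.

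Sesn1, sestrin 1, which restrains mTORC1, read 10.99, 11.12 and 10.87 in WT, 10.08, 9.85 and 10.08 in CK and 10.63, 10.73 and 10.66 in KO. Each genotype was apart from the others, with WT highest. Sesn1 fell by 0.99 in CK (SE 0.08, adjusted p = 2.04e-06) and by 0.32 in KO (adjusted p = 0.00798), and the KO call was lost with arrays centred on their medians (adjusted p = 0.0611). Zmat3, an RNA-binding protein that mediates part of p53's tumour suppression, read 9.39, 9.30 and 9.46 in WT, 9.62, 9.39 and 9.55 in CK and 9.97, 10.06 and 9.77 in KO. It rose in KO by 0.55 (SE 0.09, adjusted p = 0.000372), while CK overlapped WT (difference 0.13, interval -0.06 to 0.32).

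**Figure D3:**
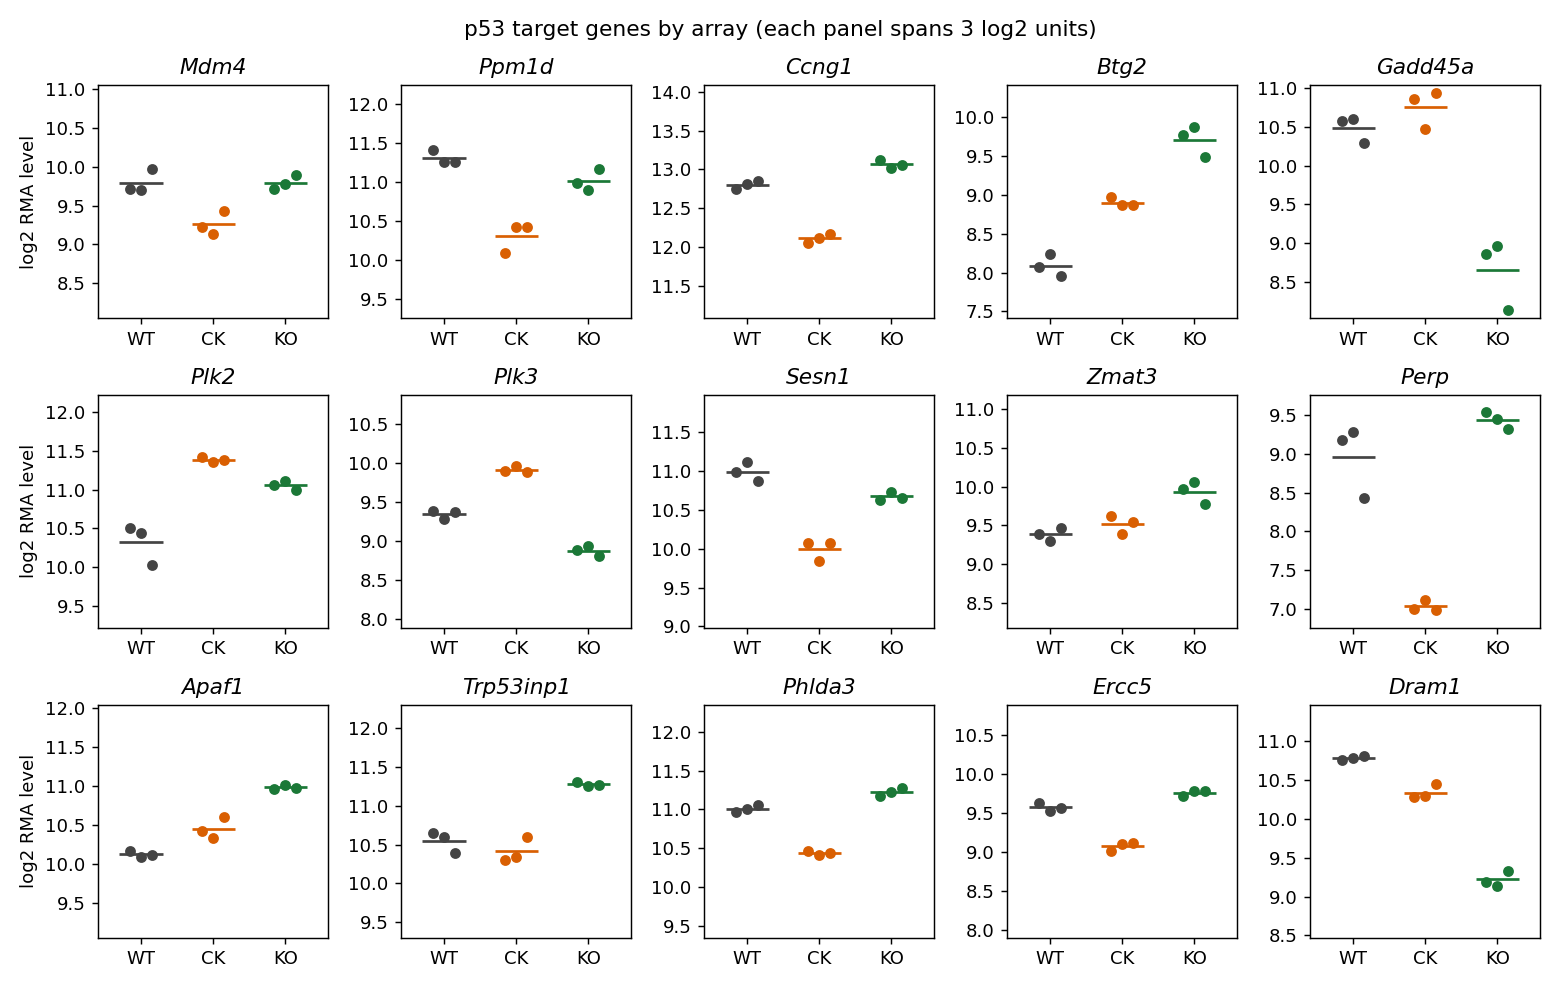
Log2 RMA levels (y axes, each spanning 3 log2 units) of the 15 p53 target genes with a called difference of at least 0.5, with 1 point per array and a bar at the mean of each genotype (WT, CK and KO on the x axes, n = 3). Perp is lowest in all CK arrays, Gadd45a and Dram1 in all KO arrays, and Btg2 and Plk2 in all WT arrays.

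Among the genes of cell death, 4 of 7 tested members rose in KO and 0 fell, and 2 rose and 2 fell in CK. Between the mutants 5 were lower in CK and 0 higher, with a median of -0.53. Of all tested genes 26.6% rose and 24.6% fell in KO, and 30.7% rose and 32.1% fell in CK. In CK against KO 32.7% were lower and 29.5% higher, and the 7 members are too few to set firmly against these shares. Perp, Ei24 and Bbc3 did not pass in KO against WT.

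Perp, a membrane protein of desmosomes that p53 induces in apoptosis, read 9.18, 9.28 and 8.43 in WT, 7.00, 7.12 and 6.98 in CK and 9.54, 9.44 and 9.32 in KO. The CK arrays stood alone at the bottom, below the filter level of 7.24, so the fold is that of the measured values. Perp fell by 1.93 in CK (SE 0.18, adjusted p = 5.55e-06), a 3.81-fold difference. Its KO difference of 0.47 missed the threshold (adjusted p = 0.0525) although the arrays did not overlap. WT replicate 3 was low, and the KO difference was 0.20 without it (Perp log2 difference, KO versus WT); it passed the test without WT replicate 1 (adjusted p = 0.0448) or 2 (0.0179).

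Apaf1, the core of the apoptosome, read 10.17, 10.08 and 10.12 in WT, 10.42, 10.34 and 10.60 in CK and 10.96, 11.01 and 10.98 in KO. It rose in steps without overlap, by 0.33 in CK (SE 0.07, adjusted p = 0.00156) and 0.86 in KO (SE 0.07, adjusted p = 1.98e-06). Trp53inp1, a nuclear body and autophagy protein that promotes phosphorylation of p53, read 10.65, 10.60 and 10.39 in WT, 10.30, 10.34 and 10.60 in CK and 11.31, 11.26 and 11.26 in KO. Only KO stood apart for it, with a rise of 0.73 (SE 0.09, adjusted p = 5.47e-05). CK minus WT was -0.13 (adjusted p = 0.217) and passed the test without CK replicate 3 (adjusted p = 0.0306).

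Phlda3, a PH-domain protein that competes with the kinase Akt for membrane lipids, read 10.97, 11.01 and 11.06 in WT, 10.47, 10.42 and 10.43 in CK and 11.17, 11.22 and 11.28 in KO. It showed the same tiers as Ccng1, with a fall of 0.57 in CK (SE 0.05, adjusted p = 4.4e-06) and a rise of 0.21 in KO (SE 0.05, adjusted p = 0.00613). Aen, an apoptosis-enhancing nuclease, rose in KO by 0.34 (adjusted p = 0.00669) and was 8.77 in WT and 8.78 in CK.

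Ei24, a membrane protein of the endoplasmic reticulum, rose in CK by 0.27 (adjusted p = 0.0334) with overlapping arrays. Its adjusted p was 0.1 with WT replicate 1 left out, 0.0737 with WT replicate 3 out, 0.0961 with CK replicate 1 out and 0.126 with CK replicate 3 out, where the difference was 0.18. KO minus WT was 0.19 (adjusted p = 0.126) and passed the test without CK replicate 2 (adjusted p = 0.0324), as CK minus KO did (0.0423).

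Bbc3 (Puma) and Pmaip1 (Noxa), BH3-only proteins that trigger mitochondrial apoptosis, were dim in every genotype. Bbc3 read from 7.23 to 7.42 over all 9 arrays, around the filter level, and its largest difference between genotypes was 0.03. Pmaip1 read 6.88 (WT), 7.00 (CK) and 6.94 (KO) and was not tested. With no filter on dim genes its CK difference of 0.12 had a limma adjusted p of 0.0451, and KO minus WT, 0.06, had 0.34.

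The death receptors differed by at most 0.47 between genotypes. Tnfrsf10b, the receptor for the ligand TRAIL, read 11.22, 11.20 and 11.22 in WT, 10.99, 11.01 and 10.94 in CK and 11.47, 11.37 and 11.50 in KO. It too had 3 separate tiers with CK lowest, at -0.23 from WT (adjusted p = 0.00236), and KO highest, at 0.23 (adjusted p = 0.00341). Fas, the receptor for Fas ligand, fell in CK by 0.19 (adjusted p = 0.00859) and was 8.23 in WT and 8.22 in KO. Eda2r, the receptor for the A2 form of ectodysplasin, read 8.55 (WT), 8.63 (CK) and 8.51 (KO). None of its differences passed in the fit of all arrays, and CK minus KO (0.12, adjusted p = 0.12) passed without CK replicate 1 (adjusted p = 0.0375).

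Among 5 DNA repair genes, 1 rose and 2 fell in KO, and 0 rose and 2 fell in CK. For all tested genes the shares were 26.6% higher and 24.6% lower in KO, and 30.7% higher and 32.1% lower in CK. Ercc5, the endonuclease XPG of nucleotide excision repair, read 9.63, 9.53 and 9.57 in WT, 9.01, 9.10 and 9.11 in CK and 9.72, 9.78 and 9.79 in KO. It fell in CK by 0.50 (SE 0.05, adjusted p = 1.41e-05) and rose in KO by 0.19 (SE 0.05, adjusted p = 0.0143), and with WT replicate 2 left out the KO difference had an adjusted p of 0.0553. The tiers were again those of Ccng1, Phlda3 and Tnfrsf10b. With Plk3, whose tiers were reversed, 5 of 28 members had opposite calls in the mutants and a call between them, beside 11.1% of all tested genes.

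Rrm2b, the p53-induced subunit of ribonucleotide reductase, fell in KO by 0.46 (SE 0.09, adjusted p = 0.00144), from 8.91 ± 0.12 in WT to 8.45 ± 0.08 (SD, n = 3, limma). It was 8.78 ± 0.16 in CK, where the arrays overlapped WT. Xpc, the damage sensor of nucleotide excision repair, fell in CK by 0.29 (adjusted p = 0.00275) and in KO by 0.18 (adjusted p = 0.0474). The KO call for Xpc was lost without any 1 of WT replicates 1, 2 and 3 (adjusted p from 0.0823 to 0.11), without KO replicate 1 (0.065) or 2 (0.18) and without CK replicate 1 (0.0593). Its CK minus KO difference of -0.12 (adjusted p = 0.146) passed without CK replicate 3 (0.0445).

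Ddb2, which recognises ultraviolet damage, read 8.14 (WT), 8.17 (CK) and 8.18 (KO). Polk, a translesion DNA polymerase, read 9.77 (WT), 9.82 (CK) and 9.76 (KO). Over the 3 comparisons the 95% intervals ran from -0.20 to 0.22 for Ddb2 and from -0.13 to 0.19 for Polk.

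Dram1, a lysosomal membrane protein that links p53 to autophagy, read 10.76, 10.79 and 10.81 in WT, 10.28, 10.29 and 10.44 in CK and 9.19, 9.14 and 9.33 in KO. It stepped down without overlap, by 0.44 in CK (SE 0.07, adjusted p = 0.00018) and 1.56 in KO (SE 0.07, adjusted p = 1.57e-08). With Gadd45a it made the deepest fall of any member in KO.

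Over the 28 tested members, KO had the highest mean level of a gene in 11, WT in 9 and CK in 8. Over all tested genes KO was highest in 33.8%, WT in 30.7% and CK in 35.4%. CK had the lowest mean in 12 members, beside 39.5% of all tested genes. The median SD of members was 0.06 (WT), 0.11 (CK) and 0.07 (KO), beside 0.07, 0.08 and 0.07 over all tested genes.

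Other p53 targets, from a list of 40 that leaves out the members, also went both ways. Of 31 tested, 12 rose and 7 fell in KO, 14 rose and 6 fell in CK, and 12 were higher and 7 lower in CK than in KO, with medians of 0.08, 0.12 and 0.08. Among all tested genes 26.6% rose and 24.6% fell in KO, and 30.7% rose and 32.1% fell in CK. In CK against KO 29.5% were higher and 32.7% lower. Cdkn1a, the best known target, had no single-symbol probe set and was not analysed here. The calls with the smallest p in KO versus WT belonged to Cd82, a tetraspanin (-1.52), Cx3cl1, a chemokine (-1.49), Kitl, the ligand of Kit (-1.78), and Tgfa, an EGF receptor ligand (1.52), as log2 differences. In CK versus WT they belonged to Lpin1, a phosphatidate phosphatase (-1.34), Igfbp3, which binds insulin-like growth factors (3.96), Cx3cl1 (-1.26) and Ephx1, an epoxide hydrolase (-1.24). Igfbp3 read 7.28, 7.20 and 7.19 in WT, 11.48, 11.46 and 10.61 in CK and 7.37, 7.40 and 7.39 in KO, so only the CK arrays stood above 7.40. In CK versus KO the smallest p belonged to Kitl (2.50), Igfbp3 (3.80), Ephx1 (-1.29) and Tgfa (-1.66). The KO arrays of Kitl (6.72 to 6.93) lay below the filter level, and Igfbp3 lay near it in WT and KO and passed the filter through CK, so these differences are those of measured values that may be background. Several of these genes also answer to other pathways.

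Of genes that regulate p53, 15 of 32 tested rose and 4 fell in KO, and 14 rose and 8 fell in CK, with medians of 0.13 and 0.09. The 4 falls in KO were 2 without WT replicate 1, 1 without WT replicate 2 and 2 without KO replicate 1, and 1 with arrays centred on their medians. Between the mutants 9 were higher and 12 lower in CK. Beside these counts, 26.6% of all tested genes rose and 24.6% fell in KO, and 30.7% rose and 32.1% fell in CK. Between the mutants 29.5% of all tested genes were higher and 32.7% lower in CK. Cdkn2a, which encodes p16 and Arf, the inhibitor of Mdm2, read 7.88, 7.81 and 7.71 in WT, 11.02, 10.81 and 11.09 in CK and 8.94, 8.94 and 8.87 in KO. It rose by 3.18 in CK (SE 0.08, adjusted p = 2.85e-10) and by 1.12 in KO (SE 0.08, adjusted p = 6.02e-07), and the probe set is not known to tell p16 from Arf. Hipk2, a kinase that phosphorylates p53, read 10.02, 9.89 and 9.95 in WT, 12.04, 12.02 and 12.01 in CK and 10.86, 10.85 and 10.99 in KO. Its rises were 2.07 in CK and 0.95 in KO. The other calls with the smallest p were rises in KO of Npm1 by 0.66 and Ppp1r13l by 0.51, and in CK those of the deacetylase Sirt1 (-1.01) and the damage kinase Atm (0.86). In CK versus KO they were Ppp1r13b (-0.91) and Trp63 (-0.70). The Mdm2 values given above are mRNA levels. Arf restrains the Mdm2 protein, which the arrays do not read, so an action of Arf on p53 was not tested.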

How the data were processed

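Total RNA of 9 MEF samples was hybridised to Affymetrix arrays as biotin-labelled cRNA, per the labels' protocols. The deposited values are log2 expression values that the authors made by RMA (affy), according to the labels and per the submitters' processing notes. RMA includes quantile normalisation, so a change in total RNA per cell would not be seen; versions and filters are not given in the sources used here. All 34760 rows of the authors' deposited table had lost their decimal mark (other unit: strings of 10 to 15 digits). Strings starting with 1 were read as 10 or more, the rest as below 10, which gave values from 4.28 to 14.4; within-genotype ranges of probe sets that cross 10 then had a median of 0.263, against 8.92 without this step.

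Genes took the current symbol of their identifier (RefSeq table, GRCm38.p6, used for names; 21553 of 21640 single-symbol probe sets matched). Genes whose mean reached the 40th percentile of genes (7.24) entered a limma fit (version 3.58.1, R 4.3.3) of all 9 arrays with a mean for each genotype and Benjamini-Hochberg adjustment over all of them; the fit was tested on simulated data. The table has no detection calls, and the number of arrays limits the precision. Every member is named, with all arrays given for those called at a log2 difference of 0.5 or more; from each pathway list the 4 calls with the smallest p are named, with Cdkn2a always. The members and lists were chosen with earlier results of these data known. Alternatives were other filters, probe set handling, scalings, variance models, 6-array fits, a replicate block, stricter thresholds and leaving out each array.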

Additional observations from a re-analysis of the deposited data

Results flagged for a closer look

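For 5 members the mutants moved in opposite directions against the same WT arrays, and the direct test between the mutants passed as well (limma, CK minus KO). These 5 were 17.9% of the 28 tested members, and 11.1% of all 11962 tested genes showed the same pattern of calls. Ccng1 differed by -0.95, Phlda3 by -0.78, Ercc5 by -0.69 and Tnfrsf10b by -0.47, each below WT in CK and above WT in KO. Plk3 differed by 1.04, above WT in CK and below it in KO. The call of Ercc5 in KO was lost without WT replicate 2 (adjusted p = 0.0553). The 2 comparisons with WT share their WT arrays, so each value is given beside the other and their likeness is not tested.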

How the results depend on the processing

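Over 19 refits, 9 of them without 1 array, no called difference of a member turned its sign, while 17 pairs of an uncalled member and a comparison did so at least once. Counts of called members stayed within 15 to 18 of 28 in KO versus WT, 16 to 18 in CK versus WT and 20 to 22 in CK versus KO when 1 array was left out. With the filter at the 60th percentile 19 members were tested, with a CK minus KO median of -0.42. Centring arrays on their medians moved the median of all tested genes in KO versus WT from 0.01 to 0.13 and the share of calls that were higher from 51.9% to 70.6%; 12 members then rose and 4 fell in KO, with a member median of 0.12. Requiring a 1.5-fold difference left 6 members in KO versus WT (4 higher, 2 lower), 6 in CK versus WT (2 higher, 4 lower) and 11 in CK versus KO (3 higher, 8 lower), which follows from the stricter rule itself. Calls that changed were those of Ppm1d, Xpc, Ercc5, Sesn1, Perp and Ei24 in KO versus WT, Ei24, Pml and Trp53inp1 in CK versus WT, and Plk2, Xpc, Eda2r and Ei24 in CK versus KO; the cause was not tested. Without the filter on dim genes, Ppm1d and Xpc lost their KO calls (adjusted p = 0.0605 and 0.0544).

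Replicate numbers shared by the groups showed no regular pairing of the arrays. Deviations of same-numbered arrays correlated between -0.30 and 0.36, and an array's best match carried its own number in 4 of 18 cases. The value of 0.36 was that of WT and KO replicate 3, and a batch shared by some of the arrays was not tested. With the replicate block, 18, 17 and 21 members were called in the 3 comparisons; Perp passed in KO versus WT (adjusted p = 0.0221) and Ei24 did not in CK versus WT (0.0504).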
